A study of Danio rerio with 18 samples.

Results

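The genes described here are the secreted and cell-surface cues that steer growing axons, and the receptors that read them, in the zebrafish (Danio rerio) nucleus of the medial longitudinal fascicle (NMLF). They were chosen by gene symbol, with earlier results of these data known. All symbols of the semaphorin, plexin, neuropilin, Slit, Robo, netrin, DCC, Unc5, ephrin and Eph families in the platform annotation were taken, with the brightest probe set for each gene. This gave 40 of 8793 named genes. Of the 40, unc50 matched by its letters only, since it encodes a Golgi membrane protein and no Unc5 receptor, and the counts below are over the other 39. They comprise 10 semaphorins with 5 of their receptors, 2 Slits with 3 Robo receptors, 2 netrins, and 8 ephrins with 9 Eph receptors. No probe set carried the symbol of DCC or of an Unc5 receptor, so the netrin system was read through its ligands alone.

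Axon guidance cues act on the growth cone, the motile tip of the axon, and can attract or repel it depending on the receptors it carries. Secreted class 3 semaphorins bind neuropilins and signal through plexins, while semaphorins of the other vertebrate classes are mostly membrane proteins that bind plexins directly. Slits repel through Robo receptors, and netrins attract through DCC or repel through Unc5 proteins. Ephrins stay on the cell that makes them, the A class by a lipid anchor and the B class by a membrane span, and activate Eph receptor tyrosine kinases on contact. In the adult nervous system many of these cues are also made by glia and blood vessels.

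The NMLF is a midbrain cell group whose axons descend the spinal cord and, in this fish, grow back after it is cut. Fish with a transected cord and sham-operated fish were sampled 4 h, 12 h and 11 d after surgery, with 3 arrays in each of the 6 groups. The labels give no strain, genotype, age, sex or number of fish per sample, and they do not say whether tissue was pooled. All tissue came from laser capture, so each array holds neurons together with the glia, vessels and blood around them. A change in the share of a cell type cannot be told apart from a change in RNA per cell.

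Levels are signals, on a linear scale, from amplified RNA hybridised to Affymetrix arrays. They were brought to a common distribution across the 18 arrays and given a floor of 16, below which values have no order, and differences are on the log2 scale. The signal of a probe set depends on its own probes, so signals of different genes are not set against each other. All 10 measured neuron markers were above the floor on every array, as were 14 of 17 midbrain and diencephalon transcription factors, while 6 of 11 hox genes of the hindbrain and cord were at the floor on all 18. Of the other hox genes, hoxb8a was above the floor on every array, with a geometric mean of 50.3. The gene hoxd3a was at the floor on 1 array (geometric mean 32.1), hoxb3a on 5 (23.5), hoxd4a on 16 and hoxb2a on 17. No gene on the marker lists defines the NMLF itself. Signals of mbpa (myelin basic protein, geometric mean 17370) and hbaa1 (an alpha globin, 6955) were high too.

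Of the 39 guidance genes, 28 were above the floor on all 18 arrays. The semaphorin sema4ab and the ephrin efna3b were at the floor on every array, the ephrin efna2a on 17, the neuropilin nrp2b on 15, sema3bl on 11, the Eph receptor ephb2b on 9 and sema3ab on 6. A few arrays at the floor were seen for sema3d (2 arrays) and for sema3e, plxnd1 and epha2a (1 array each).

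No guidance gene differed between transected and sham fish past the threshold at any time. In the limma model fitted to all 15502 probe sets, 0 of 39 passed at any of the 3 times, and the adjusted p of each was 1. The same model called 0% of all probe sets at 4 h, 0.0258% at 12 h and 0.0452% at 11 d, and a count of 0 in 39 does not set the guidance genes apart from it. At an unadjusted p under 0.05 there were 0, 0 and 2 guidance genes, against 2.27%, 4.61% and 4.42% of all probe sets. With same-numbered arrays as pairs the count was 1 at 4 h, efnb1, against 5.57% of probe sets, and 5 at 11 d (efnb2b, efnb3b, epha6, sema3d and sema4e), against 7.7%, with adjusted p of 0.57 or more. The mean of the 3 injury differences (0.0387% of probe sets called) and the test that the 3 differences are equal (0.0516%) also called 0 of 39, with 1 gene each at an unadjusted p under 0.05 (4.01% and 3.57% of probe sets).

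These counts come with wide errors. Among the 28 genes above the floor throughout, the standard error of a difference had a median of 0.41 on the log2 scale and ran from 0.13 to 0.75. The 95% interval excluded a change of 2-fold in either direction for 12 of the 28 at 4 h, for 9 at 12 h and for 12 at 11 d. For the others the interval did not exclude a change of that size. With same-numbered arrays taken as pairs, the median standard error was 0.26. The interval then excluded 2-fold for 19 of the 28 at 4 h and for 22 at 11 d. The pairing was chosen from these same data, and not every pair was set apart in them. At 11 d sham 2 with transected 1 correlated at 0.34, above the 0.23 of pair 1. The narrower intervals therefore hold only if the pairing is real, which the labels do not say. The model with pairs also pairs the 12 h arrays and shares its spread over all times, so its errors rest on them too. Errors given after ± below are from the model without pairs unless stated.

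At 4 h most guidance genes stood lower in transected fish. Of 39 genes, 31 were lower, 5 higher and 3 equal at the floor, with a median difference of -0.19, while 41.6% of all 8793 genes were lower at this time and their median was 0. All 5 genes of the Slit system, both netrins, all 6 class 3 semaphorins and all 5 EphA receptors were lower. By role, 15 of 17 receptors (median -0.26) and 16 of 22 ligands (median -0.18) were lower. No gene had transected and sham arrays without overlap (2.67% of probe sets did so upward and 1.88% downward). Within same-numbered arrays 12 of 39 were lower in all 3 pairs (9.33% of probe sets) and 1 was higher in all 3 (10%). By system the medians were -0.27 for the semaphorin system, -0.17 for the Slit system, -0.37 for the 2 netrins and -0.18 for the ephrin system, in which 13 of 17 genes were lower.

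The size of this shift at 4 h depended on single arrays. Without transected replicate 1, 22 genes were lower and the median was -0.03, and without sham replicate 2, 23 were lower and the median was -0.09. Leaving out 1 array keeps its same-numbered partner in. Within same-numbered pairs 1 to 3, 29, 24 and 23 genes were lower and 5, 10 and 11 higher. The pair medians were -0.23, -0.29 and -0.12. Transected replicate 1 stood low for neuron markers and midbrain transcription factors (medians of -0.57 and -0.42 against their means over 18 arrays). It stood high for markers of red cells (0.46), astrocytes and radial glia (0.31) and microglia and leukocytes (0.31). Sham replicate 1 at 4 h was high for the same lists (0.35, 0.25 and 0.25). Its medians for neuron markers and midbrain factors were -0.05 and 0.03. On sham replicate 2 at 4 h these 2 medians were 0.09 and 0.01. That array was at -0.18 for red cells, -0.16 for astrocytes and radial glia and -0.11 for microglia and leukocytes. For oligodendrocyte and myelin markers it was at -0.30. Summed over 10 of 19 listed neuron markers, none of them at the floor throughout, signals ran from 19608 to 23136 on the sham arrays at 4 h and from 14354 to 23067 on the transected arrays. For the 17 midbrain and diencephalon factors, again with none at the floor throughout, the sums were 3413 to 3531 and 2419 to 3239.55, without overlap. The 6 of 9 listed red cell markers summed to 7162 to 12324 and 4809 to 11735, the 8 of 11 astrocyte and radial glia markers to 17875 to 22527 and 17825 to 22428, and the 13 of 17 microglia and leukocyte markers to 5501 to 9289 and 5575 to 10267. The 4 of 12 listed endothelial and pericyte markers summed to 528 to 594.5 and 598 to 742, also without overlap. Their per-array medians did overlap, at 0.04 to 0.28 in sham and 0.02 to 0.32 in transected fish. The GAPDH ratio, a sign of RNA quality from control probe sets at both ends of that gene, was 1.56 to 1.74 in sham and 1.94 to 2.15 in transected fish at 4 h, again without overlap. The part of RNA quality and of this mixture of cells in the lower guidance levels was not tested.

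At 12 h and 11 d the guidance genes had no common direction. At 12 h 18 were higher and 17 lower, with a median of 0, and 46.4% of all genes were lower. At 11 d 21 were higher and 16 lower, with a median of 0.02, and 46.7% of all genes were lower. In all 3 same-numbered pairs 8 genes were higher and 4 lower at 12 h (10.2% and 11.5% of probe sets), and 3 higher and 6 lower at 11 d (9.85% and 11.1%). The semaphorin system stood highest at 11 d, with 10 of 15 genes higher and a median of 0.16, against -0.03 for the ephrin system and 0.00 for the Slit system, and no test set the systems against each other. The 11 d count turned on the replicate 3 arrays: 6 of 39 were lower without the sham array of replicate 3, 30 without the transected one, and 17 without both.

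**Figure D1:**
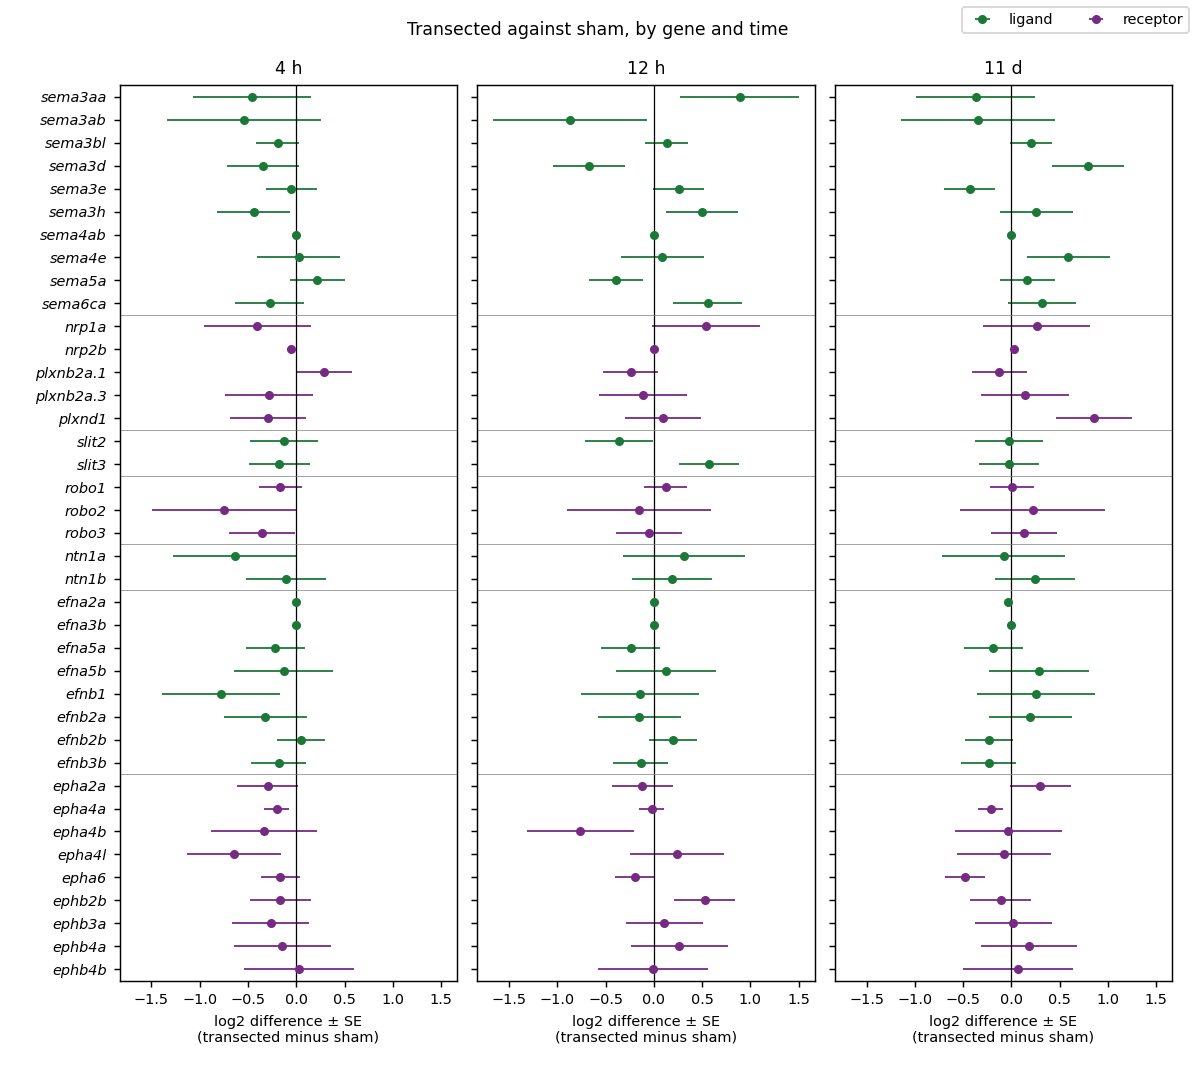
Difference between transected and sham fish for each of the 39 guidance genes at 4 h, 12 h and 11 d, on the log2 scale, with its standard error from the limma model (3 arrays per group); green points are ligands, purple points receptors, and grey lines part the systems. At 4 h 31 points lie left of 0, at 12 h and 11 d the points lie on both sides, and no gene passed the threshold.

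Many guidance genes were high or low together on the same array. For each array the median over the 39 genes of the deviation from each gene's own mean was taken. Over all 8793 genes, on arrays brought to a common distribution, this median lay between -0.02 and 0 on every array. For the 39 genes it varied more. At 4 h the median of the 39 genes was -0.10, 0.51 and 0.15 on the sham arrays of replicates 1 to 3 and -0.41, 0.19 and 0.12 on the transected arrays. At 12 h all 6 arrays lay between -0.01 and 0.05. At 11 d it was -0.15, -0.28 and 0.25 on the sham arrays and -0.27, -0.30 and 0.52 on the transected arrays. The same-numbered arrays of replicate 1 at 4 h were thus both the lowest of their group, and those of replicate 3 at 11 d both the highest.

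**Figure D2:**
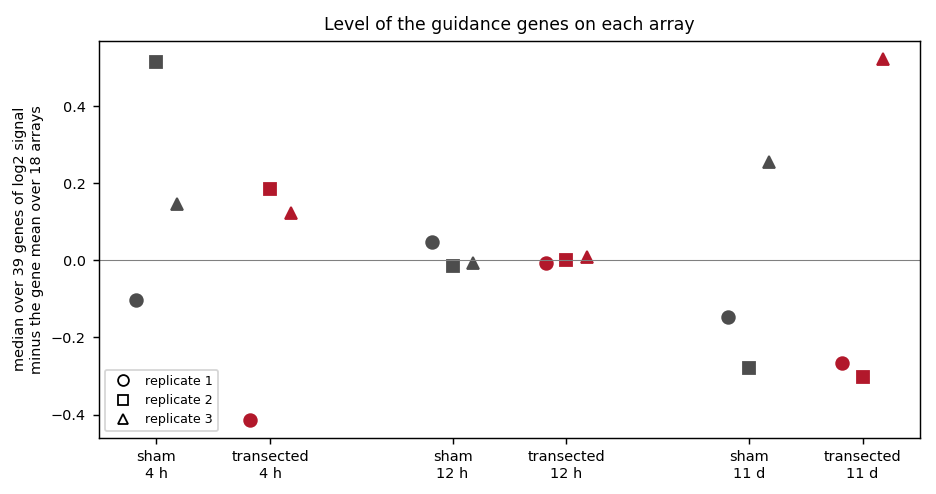
Median over the 39 guidance genes of the log2 signal minus each gene's mean over 18 arrays, for each array; grey symbols are sham, red symbols transected, and the shape gives the replicate number. The 12 h arrays lie within 0.06 of each other, while groups at 4 h and 11 d spread over 0.53 to 0.83.

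On the sham array of replicate 3 at 11 d, 30 of the 39 genes lay above their group mean and 7 below, and on the transected array of replicate 3, 29 above and 7 below. These counts were not taken over all genes. The netrin ligands moved furthest on these arrays, with medians of 0.71 and 1.12, beside 0.25 and 0.49 for the Slit system, 0.47 and 0.41 for the ephrin system and 0.07 and 0.58 for the semaphorin system. Other values set these arrays apart too. They were the highest of their groups in the median of neuron markers (-0.01 in sham and 0.32 in transected fish) and of midbrain and diencephalon factors (0.07 and 0.22). They were the lowest in the median of red cell markers (0.15 and -0.42) and of the 5 of 10 listed oligodendrocyte and myelin markers (0.11 and -0.15), whose sums were 17568 and 13042. The arrays also carry control probe sets at both ends of GAPDH, and degraded RNA raises the signal at the 3' end over that at the 5' end. This GAPDH ratio was 1.43 and 1.66 on them and 2.21 to 3.75 on the other 4 arrays of 11 d. It was 1.56 to 2.15 at 4 h, where the spread of the guidance genes was as wide, and 3.09 to 5.80 at 12 h, where it was narrow. The part of RNA quality and of the mixture of cells in the spread was not tested.

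**Figure D3:**
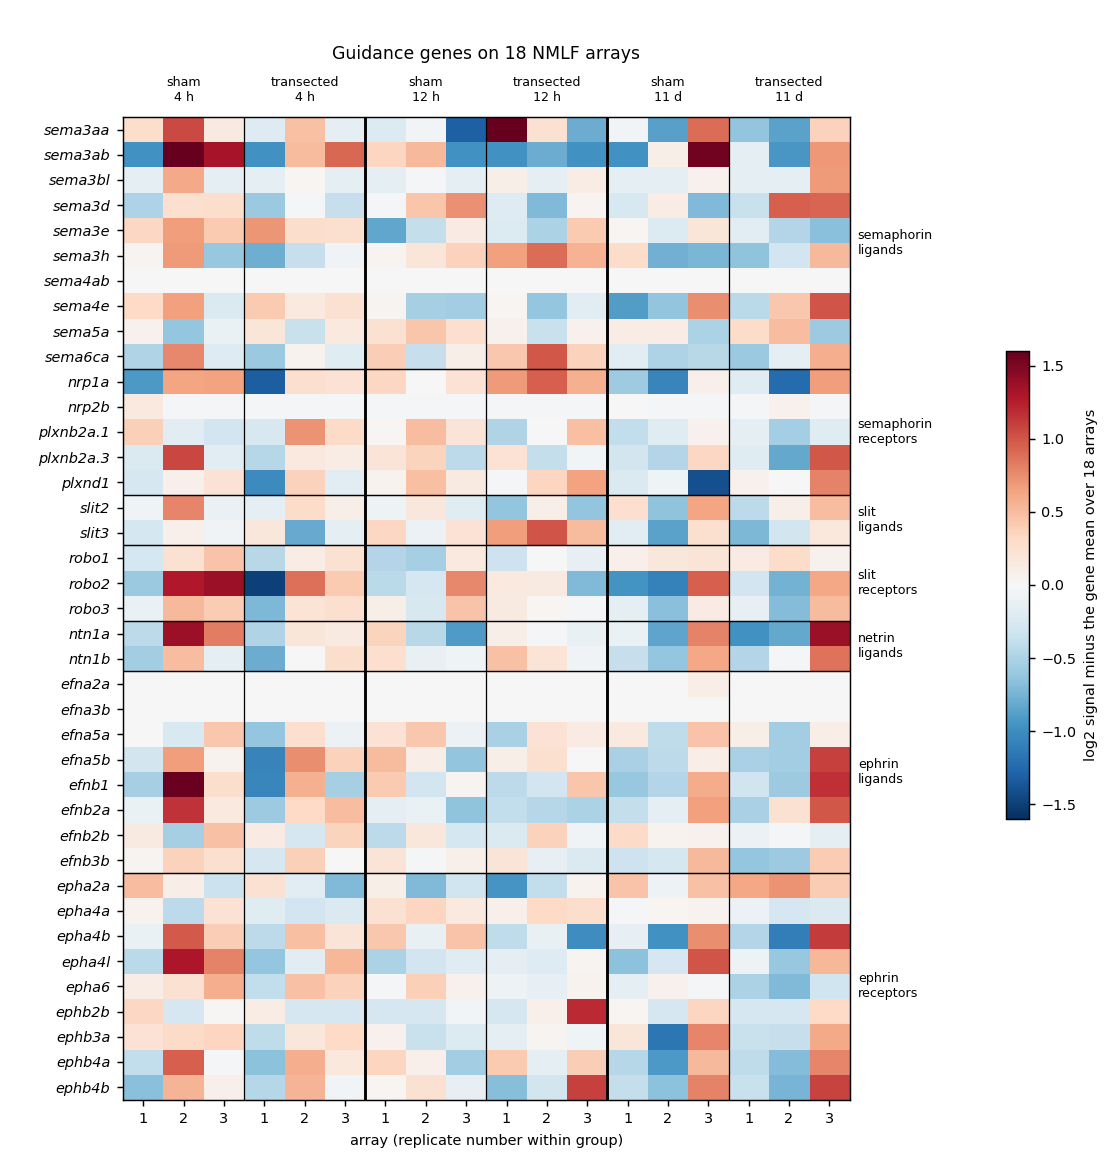
Log2 signal of each of the 39 guidance genes minus its mean over the 18 arrays, by array (columns, grouped by surgery and time, numbered by replicate) and gene (rows, grouped by system and role); the colour scale is cut at 1.6 in either direction. Warm columns run through most systems for sham replicate 2 at 4 h and both replicate 3 arrays at 11 d, and sema5a is pale or blue on those arrays.

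Among the semaphorins, the 6 class 3 ligands gave 6 lower genes at 4 h (median -0.39), 4 higher and 2 lower at 12 h (median 0.20) and 3 of each at 11 d (median -0.07). The repellent sema3aa, a neuropilin ligand, had signals of 114, 127 and 53.5 on the sham arrays at 12 h and 416, 156 and 76.1 on the transected arrays. Transected replicate 1 was the highest of all 18 arrays, and the groups overlapped (0.89 ± 0.62, SE). At 4 h sema3aa was at -0.46 ± 0.62 and at 11 d at -0.37 ± 0.62. Its paralogue sema3ab was at -0.54 ± 0.80, -0.87 ± 0.80 and -0.35 ± 0.80 at the 3 times, opposite to sema3aa at 12 h.

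The class 3 ligand sema3d changed sides over time. At 12 h it had signals of 25.5, 35.4 and 43.4 in sham fish and 22.6, 16 and 26.9 in transected fish (-0.67 ± 0.37). At 11 d the sham values were 21.8, 28.2 and 16 and the transected values 20.3, 50.4 and 49.8 (0.79 ± 0.37). Thus 2 of 3 transected arrays stood above all sham arrays, and sham replicate 3 was at the floor. Over left-out arrays the 11 d difference of sema3d ran from 0.57 to 1.23, highest without transected replicate 1. Over the other alternatives run, sema3d was at 0.17 to 1.13 at 11 d. It had the smallest p of the 39 genes in the test that the 3 injury differences are equal (unadjusted p = 0.039, limma adjusted p = 1). The 4 h difference was -0.34 ± 0.37.

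The other class 3 ligands were sema3h, sema3e and sema3bl. For sema3h the sham signals at 12 h were 106, 117 and 131 and the transected ones 160.4, 190.4 and 150.3, without overlap (0.50 ± 0.38). Upward separation of this kind at 12 h was seen for 3 of 39 guidance genes, sema3h, slit3 and nrp1a, and for 4.57% of probe sets, and downward separation for sema5a alone, beside 4.72%. At 11 d sema3e, whose receptor is the plexin plxnd1, was lower in 3 of 3 pairs, at 29.0, 24.5 and 32.7 in sham and 25.4, 20.6 and 17.98 in transected fish (-0.43 ± 0.26), and the groups overlapped. The dim sema3bl was at -0.19 ± 0.22, 0.13 ± 0.22 and 0.20 ± 0.22 at the 3 times.

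Of the membrane semaphorins, sema4e, of class 4, stood higher at 11 d in 3 of 3 pairs, with sham signals of 37.8, 45.4 and 117 and transected signals of 52.0, 94.2 and 140.5 (0.59 ± 0.43). In both groups replicate 3 was the highest, and the ranges overlapped. The difference was 0.25 without transected replicate 3, 0.27 without sham replicate 1, 0.97 without transected replicate 1 and 1.09 without sham replicate 3. The class 6 gene sema6ca was at 121, 71.2 and 98.2 in sham and 124, 183 and 119 in transected fish at 12 h (0.56 ± 0.36). Without transected replicate 2 it was 0.36 and without sham replicate 2 it was 0.35. The class 5 gene sema5a, which carries thrombospondin repeats, went the other way at 12 h, with 148, 169.7 and 149.9 in sham and 130.5, 97.4 and 131 in transected fish, without overlap (-0.39 ± 0.28, and -0.25 without transected replicate 2). At 4 h it had been higher in 3 of 3 pairs, at 131, 81.2 and 115 in sham and 142, 97.6 and 138 in transected fish (0.22 ± 0.28), with 0.02 to 0.39 when single arrays were left out, lowest without sham replicate 2. On the replicate 3 arrays at 11 d, where most guidance genes were high, sema5a was low, at 87.5 in sham and 83.1 in transected fish against 135 to 176 on the other 4.

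Among the semaphorin receptors, neuropilin nrp1a, the co-receptor of class 3 ligands, was at 133, 389 and 393 in sham and 101, 299 and 294 in transected fish at 4 h (-0.40 ± 0.56). Each transected array was lower than its same-numbered sham array, and replicate 1 was low in both groups. With same-numbered arrays as pairs the standard error at 4 h was 0.17 (unadjusted p = 0.050, limma adjusted p = 0.90). At 12 h the values were 317, 253 and 295 in sham and 403, 486 and 373 in transected fish, without overlap (0.54 ± 0.56). At 11 d they were 169, 120.5 and 266 against 220.0, 107 and 398 (0.26 ± 0.56), with wide overlap. Its error comes from the 4 h and 11 d arrays as well, since the model shares the spread over all groups.

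Plexin plxnd1, a receptor of sema3e best known from blood vessels, had the largest difference upward at 11 d. Its signals were 36.3, 40.7 and 16 in sham fish and 44.8, 42.4 and 73.6 in transected fish, without overlap (0.85 ± 0.39, unadjusted p = 0.0497, limma adjusted p = 1). Replicate 3 decided the size, being at the floor in sham fish and highest in transected fish. Without the sham array the difference was 0.43, and without both replicate 3 arrays it was 0.18. It was the only guidance gene with an upward separation at 11 d (2.73% of probe sets). The 4 measured of 12 listed endothelial and pericyte markers, none at the floor throughout, summed to 446 to 632 in sham and 363 to 674 in transected fish at 11 d, while their per-array medians were lower without overlap, at -0.09 to 0.08 in sham and -0.44 to -0.27 in transected fish. Without overlap, the 13 of 17 microglia and leukocyte markers summed to 6555 to 7981 and 9809 to 11209, and the 3 of 7 markers of meninges and fibroblasts to 307 to 442 and 501 to 707. The per-array medians did not overlap for microglia and leukocytes (-0.21 to -0.06 and 0.29 to 0.36). For meninges and fibroblasts they did overlap, at -0.63 to 0.37 in sham and 0.01 to 0.56 in transected fish. In that list dcn had a geometric mean of 417, beside 38.3 for col1a2 and 16.6 for col1a1a. The part of these cell types in the plxnd1 values was not tested.

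The B-type plexins, which bind class 4 semaphorins, did not move as a pair. At 4 h plxnb2a.1 was at 161, 109 and 100.1 in sham and 103, 203 and 153 in transected fish (0.29 ± 0.29, and 0.06 to 0.55 over left-out arrays, lowest without transected replicate 2), with overlap, while plxnb2a.3 was at -0.28 ± 0.46. At 11 d they were at -0.12 ± 0.29 and 0.14 ± 0.46. Symbols of this form are given to neighbouring copies of a gene, and whether their probe sets also read each other's RNA was not examined. Neuropilin nrp2b left the floor on 3 arrays only, the highest at 18.05 in sham replicate 1 at 4 h.

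In the Slit system, the receptor robo1 lay within its standard error of 0 at each time after injury. Its signals at 4 h were 319.5, 459.7 and 536 in sham and 287, 423 and 461 in transected fish (-0.16 ± 0.22). At 12 h they were 283, 269 and 436 against 309, 389.9 and 354 (0.12 ± 0.22), and at 11 d 414, 442 and 450.4 against 428, 476 and 408 (0.00 ± 0.22). The 95% interval at 11 d ran from -0.48 to 0.49, and the groups overlapped at every time. For robo2, needed for the course of retinal axons in zebrafish, the 4 h values were 60.5, 223 and 235 in sham and 32.5, 168 and 122 in transected fish (-0.75 ± 0.75). Its lowest and highest signals over 18 arrays, 32.5 and 235, lie within this time. The third receptor, robo3, known in mouse and fish for its role in axons that cross the midline, was at -0.35 ± 0.34 at 4 h and at 0.13 ± 0.34 at 11 d.

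The ligand slit3 had the smallest p of the guidance genes at 12 h. The sham arrays read 148, 111 and 138 and the transected arrays 187, 237 and 167, without overlap (0.57 ± 0.31, unadjusted p = 0.092, limma adjusted p = 1). Its differences at 4 h and 11 d were -0.17 ± 0.31 and -0.02 ± 0.31. For slit2 the 12 h difference had the opposite sign, at -0.36 ± 0.35, with -0.12 ± 0.35 and -0.03 ± 0.35 at the other times.

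Of the netrins, ntn1b had signals of 378, 785 and 506 in sham and 322, 552 and 679.8 in transected fish at 4 h (-0.10 ± 0.41), and 672, 514 and 529.9 against 773, 649 and 538 at 12 h (0.19 ± 0.41). At 11 d the values were 430.4, 363 and 856 against 402, 546 and 1015 (0.24 ± 0.41), and replicate 3 was the highest in both groups. Its paralogue ntn1a was at 36.4, 125 and 86.0 in sham and 34.8, 55.5 and 53.7 in transected fish at 4 h (-0.64 ± 0.64), at 0.31 ± 0.64 at 12 h and at -0.08 ± 0.64 at 11 d. The brightest probe set for ntn1a is of a kind that Affymetrix marks as shared by several transcripts, and its other 2 probe sets were at or close to the floor.

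Among the ephrin ligands, efnb1 had the largest difference downward of the 39 genes at 4 h and is named after its values were seen. Its signals were 52.0, 225 and 91.4 in sham and 36.3, 111 and 51.9 in transected fish, lower in 3 of 3 pairs with overlap between the groups (-0.78 ± 0.61). With same-numbered arrays as pairs the standard error was 0.25 (unadjusted p = 0.017, limma adjusted p = 0.84). At 12 h and 11 d efnb1 was at -0.15 ± 0.61 and 0.25 ± 0.61. The close relative efnb2b was at 56.0, 34.8 and 69.9 in sham and 55.3, 42.0 and 64.4 in transected fish at 4 h (0.05 ± 0.25). At 11 d it was at 62.3, 52.3 and 52.8 against 47.2, 49.6 and 45.4, without overlap (-0.23 ± 0.25). In the model without pairs both efnb2a, a marker of arteries, and efnb3b lay within their standard errors of 0 at all 3 times, between -0.32 and 0.20. With same-numbered arrays as pairs, efnb3b was at -0.23 ± 0.08 at 11 d (unadjusted p = 0.028, limma adjusted p = 0.57). At 4 h it was at -0.18 ± 0.08 with pairs (unadjusted p = 0.067, limma adjusted p = 0.90). The A class ligands efna5a and efna5b ranged from -0.24 to 0.28, and efna2a was off the floor only in sham replicate 3 at 11 d, at 17.3 (-0.04 ± 0.02).

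Of the 5 EphA receptors, 5 were lower in transected fish at 4 h, 4 at 12 h and 4 at 11 d, with medians of -0.29, -0.12 and -0.08. Of all genes, 41.6%, 46.4% and 46.7% were lower at these times. Some of the differences counted as lower were close to 0, such as epha4a at 12 h (-0.02 ± 0.13) and epha4b at 11 d (-0.03 ± 0.55). With so few genes the counts are no result about EphA receptors. For epha6 the 11 d arrays read 78.6, 91.6 and 85.7 in sham and 61.2, 53.2 and 69.5 in transected fish, without overlap and lower in 3 of 3 pairs (-0.48 ± 0.20, 95% interval -0.92 to -0.04, unadjusted p = 0.035, limma adjusted p = 1). It was at -0.17 ± 0.20 at 4 h and -0.20 ± 0.20 at 12 h, and the mean of the 3 differences was -0.28 ± 0.12 (unadjusted p = 0.033, limma adjusted p = 1). Downward separation at 11 d was seen for 3 of 39 guidance genes, epha6, epha4a and efnb2b, and for 2.99% of probe sets.

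The receptor epha4a, which binds ephrins of both classes, had the smallest standard error of the genes above the floor throughout. It was at 223, 159 and 252 in sham and 186, 173 and 182 in transected fish at 4 h (-0.20 ± 0.13), and at 208, 218 and 222 against 200.1, 178 and 181 at 11 d (-0.21 ± 0.13), with all transected arrays below all sham arrays at 11 d. The 4 h difference was -0.39 without sham replicate 2 and -0.06 without sham replicate 3. At 12 h the difference was -0.02 ± 0.13. Its second probe set gave -0.11 ± 0.22, -0.40 ± 0.22 and 0.03 ± 0.22 at the 3 times, so the 11 d difference was not seen with it. Of the related receptors, epha4l was at 46.9, 155 and 109.5 in sham and 41.1, 55.5 and 91.5 in transected fish at 4 h (-0.64 ± 0.49). Without sham replicate 2 this was -0.27, without transected replicate 1 it was -0.38, and without sham replicate 1 it was -1.13. The 12 h arrays gave 165, 112 and 167 in sham and 92.02, 112 and 61.5 in transected fish for epha4b (-0.76 ± 0.55), with overlap through replicate 2.

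Among the EphB receptors, the ephrin-B receptor ephb2b was off the floor at 12 h in sham replicate 3, at 18.6, and in transected replicates 2 and 3, at 20.4 and 43.9, and at the floor on the other arrays of that time (0.53 ± 0.32). Without transected replicate 3 the difference was 0.10. The differences of ephb3a, ephb4a and ephb4b, the last 2 related to the mammalian EphB4 that marks veins, lay between -0.26 and 0.26 at the 3 times, with standard errors of 0.40 to 0.57.

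**Figure D4:**
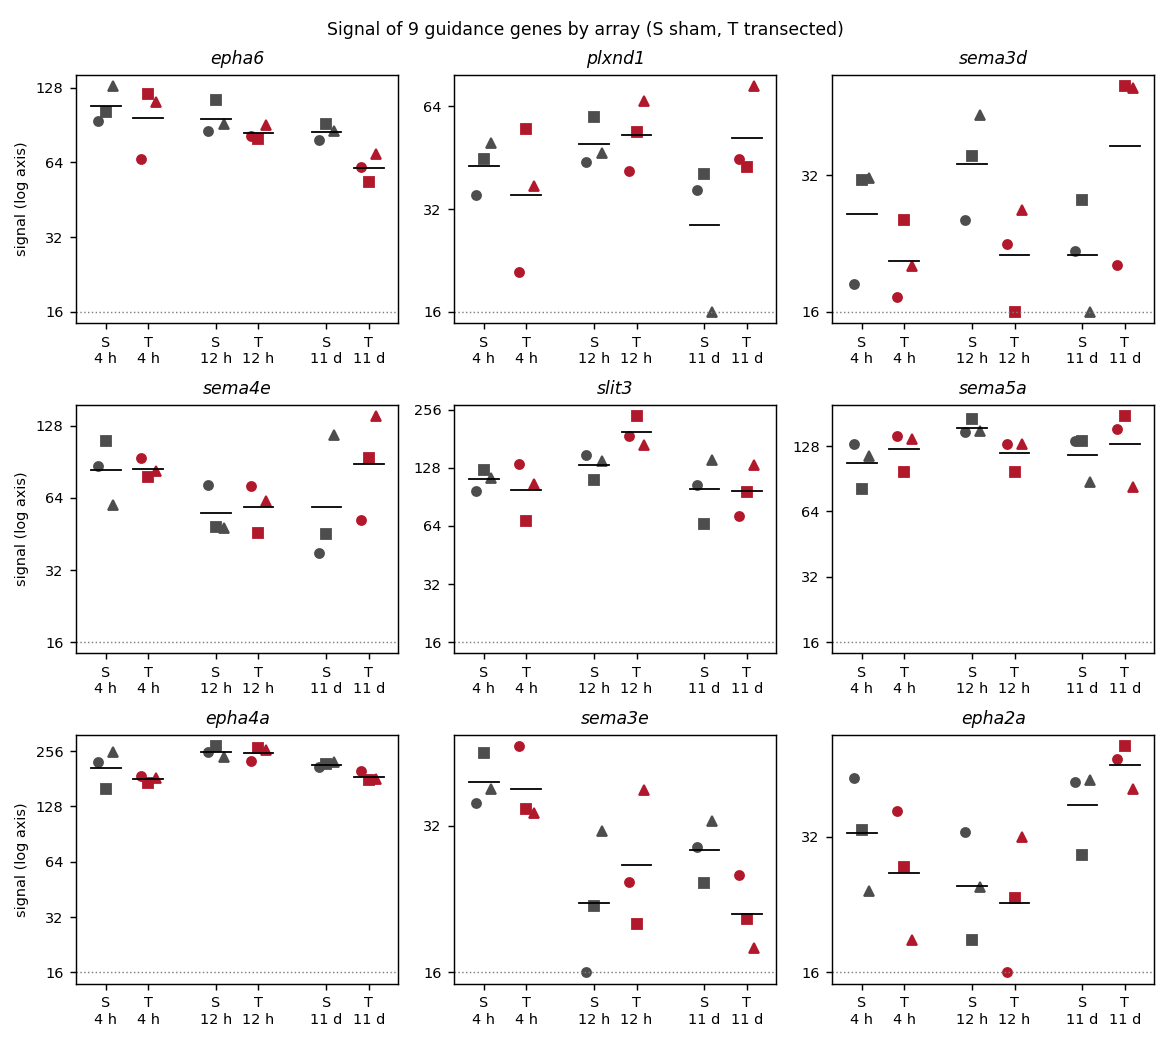
Signal of 9 guidance genes on each array, on a log axis; grey symbols are sham (S), red symbols transected (T), circles, squares and triangles are replicates 1, 2 and 3, bars are geometric means of 3 arrays, and the dotted line is the floor of 16. The transected arrays lie below the sham arrays at 11 d for epha6 and epha4a and above them at 12 h for slit3, while plxnd1 at 11 d is spread by replicate 3.

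Over time, irrespective of injury, none of the 39 genes passed. The test over the 3 times, each the mean of its sham and transected group, called 4.01% of all probe sets and 0 guidance genes, and 6 of 39 were at an unadjusted p under 0.05, beside 18.9% of probe sets. The test over the 3 sham groups called 0.0258% of probe sets and 0 guidance genes, with 1 of 39 at an unadjusted p under 0.05, beside 7.05%. The smallest p in the first test was that of epha4a, whose 6 arrays ran from 159 to 252 with a median of 184 at 4 h, from 227 to 272 with a median of 256 at 12 h, and from 178 to 222 with a median of 204 at 11 d (limma adjusted p = 0.054). The 12 h arrays stood highest, with the 4 h sham array at 252 within their range. The GAPDH ratio was 3.09 to 5.80 on the 12 h arrays, 1.56 to 2.15 at 4 h and 1.43 to 3.75 at 11 d, so the 12 h and 11 d ranges overlapped. Its part in this difference was not tested. The second probe set of epha4a had geometric means of 56.8, 67.9 and 54.1 in sham fish at 4 h, 12 h and 11 d. In transected fish they were 52.5, 51.4 and 55.1, so with it only the sham means were highest at 12 h.

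For sema3e the lowest, median and highest of 6 arrays were 34.0, 36.8 and 46.6 at 4 h. They were 16, 23.2 and 38.0 at 12 h and, last, 17.98, 24.9 and 32.7 at 11 d, so every 4 h array lay above every 11 d array (limma adjusted p = 0.078). It also led the test over sham fish alone (unadjusted p = 0.027, limma adjusted p = 0.63), followed by epha4a (adjusted p = 0.79) and robo1 (adjusted p = 0.81). For epha2a, a receptor found in mammals mainly in epithelia, the values were 18.9, 30.1 and 43.3 at 4 h. They were 16, 24.1 and 32.9 at 12 h and, last, 29.2, 42.6 and 50.9 at 11 d, with overlap between all times (limma adjusted p = 0.12). The other 3 genes at an unadjusted p under 0.05 were epha6, slit3 and sema3h. In medians of 6 arrays epha6 went from 107 at 4 h to 87.9 and 73.9, while slit3 and sema3h were highest at 12 h, at 157 and 141.

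No further measured gene on 2 lists of the same pathways passed after injury either. Of 28 measured cues, receptors and adhesion molecules outside the families above, 0 passed at any time, with 18 lower at 4 h (median -0.13), 14 at 12 h and 16 at 11 d, beside the shares of all genes given above. Furthest from 0 at 11 d among these and the growth cone genes were, upward, l1camb, an adhesion molecule of axons (0.78 ± 0.77), and gpc1b, a heparan sulfate proteoglycan of the cell surface (0.62 ± 0.43). Downward they were ryk, a Wnt receptor in axon guidance (-0.73 ± 0.29, limma adjusted p = 0.91), and farp2, an exchange factor that links plexins to Rac (-0.55 ± 0.40). Of 45 measured genes that carry the signal inside the growth cone, 0 passed at any time after injury, and the medians were 0.00, 0.00 and 0.01. At 4 h 22 of these 45 were lower, so the excess of lower genes among the families above was not seen in them. In the test over time 1 of the 45 passed, where 4.01% of all probe sets did, so the count is no result about the list. The gene was adam10b, a protease that cleaves ephrins and other surface proteins. Its median over 6 arrays was 120.01 at 4 h, 113 at 12 h and 67.8 at 11 d (limma adjusted p = 0.043). The arrays ran from 62.3 to 138.7 at 4 h, from 97.2 to 138.2 at 12 h and from 53.3 to 92.7 at 11 d. The 4 h and 11 d ranges thus overlapped, and the part of RNA quality was not tested. Differences of adam10b after injury were -0.27 ± 0.24, -0.18 ± 0.24 and 0.33 ± 0.24.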

How the data were processed

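RNA of laser-captured NMLF tissue was measured on 18 arrays in 6 groups of 3, named from the sample titles. Per the labels' protocols, RNA was column-purified, amplified and prepared as biotinylated cDNA by the manufacturer's procedure. The deposited values are intensities on a linear scale, 1 per probe set and array, as the values show, and the program and build behind them are not given in the sources used here. Trimmed by 2% at each end, the mean intensity was 150.0 on 16 arrays and 100.4 and 92.6 on the replicate 3 arrays at 4 h (sham and transected). Per array, 22.8% to 39.8% of values lay below 16. Intensities were quantile normalized, floored at 16 and put on the log2 scale. Of 15617 probe sets, 115 controls were left out. GEO's platform annotation, updated by gene number through RefSeq, gave 10795 probe sets with 1 symbol (8793 genes, 8720 in RefSeq), 135 with several and 4572 with none. All 40 genes chosen had a RefSeq entry.

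A linear model of 6 group means was fitted to 15502 probe sets with limma 3.58.1 in R 4.3.3 (12 residual and 0.51 prior degrees of freedom) and tested on simulated data. P-values were Benjamini-Hochberg adjusted over all probe sets (threshold 0.05). The labels do not tie samples to animals, so p-values cover only the variation among the samples, which may be technical. Per time, genes shown in full were the 3 smallest p in each direction, besides the 3 leading each time test and the 3 brightest ligands and receptors. Other genes given array by array were picked after their values were seen. Members, lists and tests were chosen with earlier results of these data known. Same-numbered sham and transected arrays deviated together at 4 h (correlations over probe sets of 0.62, 0.38 and 0.26) and 11 d (0.23, 0.48 and 0.64), but not all at 12 h (0.11, -0.01 and 0.14), so numbers were taken as pairs at 4 h and 11 d. This rests on the data, not on the labels, and at 11 d replicates 1 and 2 were not set apart: sham 2 with transected 1 gave 0.34. At 4 h replicates 2 and 3 were not clearly set apart: sham 2 with transected 3 gave 0.23 and sham 3 with transected 2 gave 0.11. Alternatives covered scaling, floor, dim probe sets, variance model, pairing, other probe sets and left-out arrays.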

Additional observations from a re-analysis of the deposited data

How the results depend on the processing

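The count of 0 guidance genes past the threshold at 4 h, 12 h and 11 d, for their mean and for the test of equal injury differences held under each of the 29 alternatives run. With the replicate number as a block 0 passed too, and the block changed no call. The lowest adjusted p of a guidance gene after injury was 0.069, for epha6 at 11 d with array weights. The test over time moved: 1 gene passed on the deposited scale, 1 with a floor of 8 and 1 with log2(intensity + 16). The last 2 were both sema4ab, which was at the floor of 16 on every array. Without both replicate 3 arrays at 11 d 2 passed, without both at 4 h 1, and 0 to 1 when single arrays were left out. With array weights 13 passed, where 5617 of all probe sets did against 621 without weights, and 2 passed in the test over sham fish. The count over all probe sets is given beside the 13 only, so the other counts are no result about the guidance genes. A fixed block cannot be used for tests over time, and with a random replicate block 0 passed. The count of lower genes at 11 d ran from 6 to 30 over left-out arrays, at 4 h from 22 to 32. The 4 h median ran from -0.34 to -0.03 over left-out arrays and from -0.28 to -0.15 over the other alternatives. For efnb2b at 4 h the sign turned with trimmed mean scaling (-0.045), on the deposited scale (-0.084), with array weights (-0.24) and over left-out arrays (-0.24 to 0.27). The cause was not tested. The number of arrays and the floor limit what dim genes can show.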

Other observations

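Probe sets of the same guidance gene did not always read alike. A dim second probe set of efnb2b, at the floor on 11 of 18 arrays, had geometric means of 32.2 in sham and 18.1 in transected fish at 4 h (-0.83 ± 0.21, unadjusted p = 0.0016, limma adjusted p = 1), while the bright one was at 0.05 ± 0.25. For efnb1 the dim probe set was at -0.09 ± 0.26 at 4 h, beside -0.78 ± 0.61 for the bright one. The Golgi gene unc50, left out of the counts, was at 0.15 ± 0.25, -0.44 ± 0.25 and -0.11 ± 0.25 at the 3 times.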
